A study of Arabidopsis thaliana with 48 samples.

Results

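PRK, SBPASE and RCA encode 3 nuclear-encoded proteins of the Calvin cycle, and their transcripts were followed through guard cell samples and whole leaves of Arabidopsis thaliana. They were found by matching the array's probe sets to the loci AT1G32060 (PRK), AT3G55800 (SBPASE) and AT2G39730 (RCA), keeping probe sets tied to 1 gene only. Each gene had 1 probe set (255720_at for PRK, 251762_at for SBPASE and 245061_at for RCA), so the members were 3 of 13356 genes with a probe set of their own, among 22746 probe sets that are not controls. The study holds 48 1-colour arrays in 16 groups of 3, from 2 sample types, 4 genotypes and 2 treatments. All plants were Columbia (Col-0), and the genotypes were wild type (WT), the agb1-2 mutant of the G protein beta subunit, the gpa1-4 mutant of the alpha subunit, and the agb1-2 gpa1-4 double mutant. Samples were held for 3 h with 50 µM abscisic acid (ABA) or with its solvent ethanol (EtOH). The labels describe the 3 replicates of a group as independent biological ones, and plants were 5 weeks old, in days of 8 h light and 16 h dark. Guard cells of 1 sample came from 300 leaves (60 to 70 plants), whereas 10 leaves (3 to 4 plants) made up 1 leaf sample. One label field has ABA given to leaves in every sample, whereas the series' design has guard cells treated after their isolation, and one field names no treatment where another names EtOH.

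The Calvin cycle fixes carbon dioxide in the chloroplast stroma, where rubisco joins it to ribulose bisphosphate. Phosphoribulokinase (PRK) makes that acceptor with ATP, and sedoheptulose-bisphosphatase (SBPASE) acts in the reactions that regenerate its precursor. Both enzymes are switched on in the light through thioredoxin. Rubisco activase (RCA) frees rubisco's active sites of inhibitory sugar phosphates. In leaves most of the cycle runs in mesophyll cells, and guard cells hold fewer and smaller chloroplasts. ABA is the hormone of water shortage that closes stomata, and GPA1 and AGB1 are subunits of the heterotrimeric G protein that takes part in guard cell ABA responses.

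Values are the authors' RMA log2 expression values, so a difference of 1 is a doubling. Differences were tested with limma across all 22746 probe sets, with p-values adjusted by the Benjamini-Hochberg method over them, and a probe set was called at an adjusted p under 0.05. SE is the moderated standard error, intervals are 95% intervals, and n = 3 arrays a group throughout. A probe set has its own affinity, so levels were not compared between the 3 genes. Array medians ran from 5.06 to 5.39 and correlations within groups from 0.963 to 0.995. Few marker genes had a named probe set. Of 10 guard cell markers 2 were measured, and in WT without ABA both were higher in guard cell samples: FMA, a transcription factor of guard cell formation, by 5.05 (SE 0.28) and AT1G22690 by 3.47 (SE 0.29). The mean of these 2 markers was 12.03 to 12.77 over the 12 EtOH guard cell arrays and 7.06 to 8.60 over the 12 EtOH leaf arrays, against 10.70 to 11.50 and 6.83 to 7.77 with ABA. SWEET11, a sugar exporter of the vasculature and the 1 vascular marker measured of 4, lay at 3.92 to 6.53 in guard cell arrays without ABA and at 10.74 to 11.36 in leaf arrays without ABA, and at 4.12 to 5.46 and 8.78 to 10.56 with ABA. No epidermis marker of 5 was measured, and the transcripts of GPA1 and AGB1 had no named probe set, so the mutants were not checked on their own genes here. In such bulk samples fewer cells of a type and less RNA per cell cannot be told apart.

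**Figure D1:**
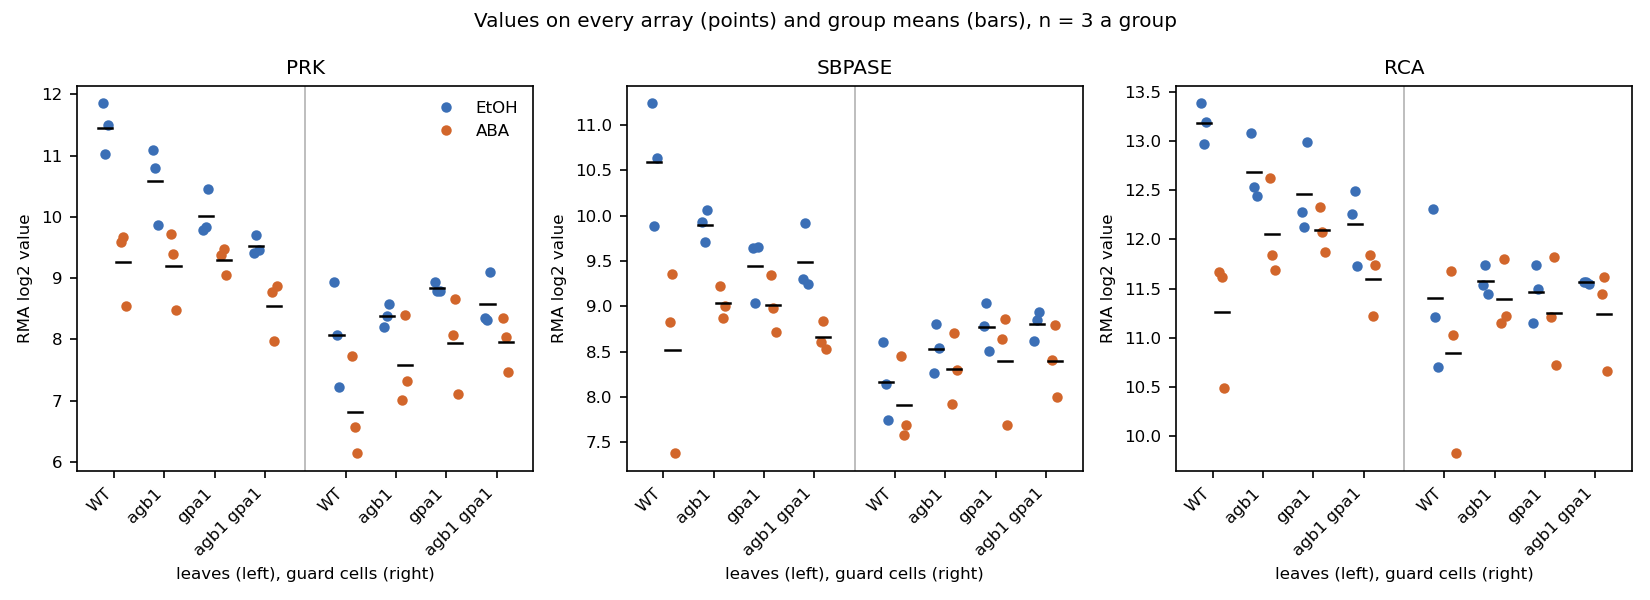
RMA log2 values of PRK, SBPASE and RCA on each of the 48 arrays (points; blue EtOH, orange ABA), with group means (bars, n = 3), by genotype in leaves and guard cell samples. All 3 genes stood highest in WT leaves with EtOH, where the means were 11.46, 10.59 and 13.18.

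In WT without ABA all 3 genes were lower in guard cell samples than in leaves. PRK read 11.85, 11.02 and 11.49 on the leaf arrays and 8.93, 8.07 and 7.22 on the guard cell arrays. SBPASE read 11.24, 9.89 and 10.63 in leaves against 8.61, 8.14 and 7.75 in guard cell samples. RCA read 13.38, 12.97 and 13.20 in leaves against 12.31, 11.21 and 10.70 in guard cell samples. No guard cell array reached any leaf array for any of the 3 genes, a pattern that 25.1% of all probe sets showed in this direction. The guard cell arrays were also further apart than the leaf arrays for PRK (SD 0.86 against 0.42) and RCA (SD 0.82 against 0.21) but not for SBPASE (SD 0.43 against 0.67), and replicate 1 was the highest of them for all 3 genes.

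PRK showed the widest difference, lower in guard cell samples by a log2 difference of -3.38 (SE 0.43, interval -4.26 to -2.51), or 10.4-fold, with limma's adjusted p = 3.65e-08. SBPASE differed by -2.42 (SE 0.35, interval -3.14 to -1.70), or 5.36-fold (adjusted p = 5.20e-07). RCA differed by -1.78 (SE 0.38, interval -2.55 to -1.003), or 3.43-fold (adjusted p = 1.98e-04). All 3 genes were thus called lower, in a comparison in which 22.2% of all probe sets were called lower. The RCA leaf values, up to 13.38, lay close to the leaf array maxima of 13.98 to 14.50, where array signals can flatten. An effect of this on the RCA difference was not tested. Isolation of the cells goes with the sample type in every group, so the 2 cannot be told apart.

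With ABA, only PRK was called lower in WT guard cell samples than in WT leaves. PRK stood at 9.58, 9.68 and 8.54 in leaves and at 7.72, 6.56 and 6.14 in guard cell samples, with no overlap (as for 24.5% of all probe sets in this direction), a log2 difference of -2.46 (SE 0.43, 5.50-fold) and limma's adjusted p = 9.33e-06. SBPASE differed by -0.61 (SE 0.35, interval -1.33 to 0.11, adjusted p = 0.156) and RCA by -0.42 (SE 0.38, interval -1.19 to 0.36, adjusted p = 0.390), with overlapping arrays. So 1 of the 3 genes was called lower, beside 23.2% of all probe sets. SBPASE depended on 1 array: without replicate 3 of the ABA leaves, which read 7.38, it differed by -1.18 and was called (adjusted p = 0.00388). The sign of the RCA difference also rested on 1 array, since without replicate 3 of the ABA guard cells it was 0.09.

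In agb1 without ABA all 3 genes were again called lower in guard cell samples, beside 20.1% of all probe sets. PRK differed by -2.20 (SE 0.43, 4.58-fold, limma's adjusted p = 7.21e-05). SBPASE differed by -1.37 (SE 0.35, 2.58-fold, adjusted p = 0.00185) and RCA by -1.11 (SE 0.38, 2.16-fold, adjusted p = 0.0179). The RCA call was lost without replicate 1 of the agb1 EtOH leaves (adjusted p = 0.0958) or replicate 3 of the agb1 EtOH guard cells (adjusted p = 0.0559). With ABA only PRK was called lower in agb1, by -1.62 (SE 0.43, adjusted p = 0.00215), beside 20.5% of all probe sets.

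In gpa1 without ABA, PRK differed by -1.19 (SE 0.43, 2.27-fold, limma's adjusted p = 0.0246) and RCA by -1.005 (SE 0.38, 2.01-fold, adjusted p = 0.0313). SBPASE differed by -0.67 (interval -1.39 to 0.05, adjusted p = 0.133), so 2 of the 3 genes were called lower, beside 20.7% of all probe sets. Both calls were near the threshold: PRK's was lost without replicate 2 or 3 of the gpa1 EtOH guard cells (adjusted p = 0.0588 and 0.0599) or replicate 3 of the leaves (adjusted p = 0.114), and RCA's without replicate 1 or 3 of the guard cells (0.119 and 0.0597) or replicate 3 of the leaves (0.174). With ABA only PRK was called, at -1.36 (SE 0.43, adjusted p = 0.00921), beside 21.1% of all probe sets called lower; it was lost without replicate 3 of the gpa1 ABA guard cells (adjusted p = 0.107).

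In the double mutant no member was called in either treatment. Without ABA the differences were -0.94 for PRK (interval -1.82 to -0.06, limma's adjusted p = 0.0764), -0.69 for SBPASE (interval -1.41 to 0.03, adjusted p = 0.117) and -0.60 for RCA (interval -1.37 to 0.18, adjusted p = 0.220). Guard cell and leaf arrays still did not overlap for any of the 3 genes, as for 26% of all probe sets in this direction, and 21.4% of all probe sets were called lower. A fit of the 6 arrays compared, with no others, called all 3 genes, with adjusted p = 0.0122, 0.0279 and 0.0418. With ABA the differences were -0.59, -0.26 and -0.36, with overlapping arrays, beside 22.7% of all probe sets called lower. Over the 4 genotypes, all 12 differences without ABA and all 12 with ABA were negative, 8 and 3 of them called.

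**Figure D2:**
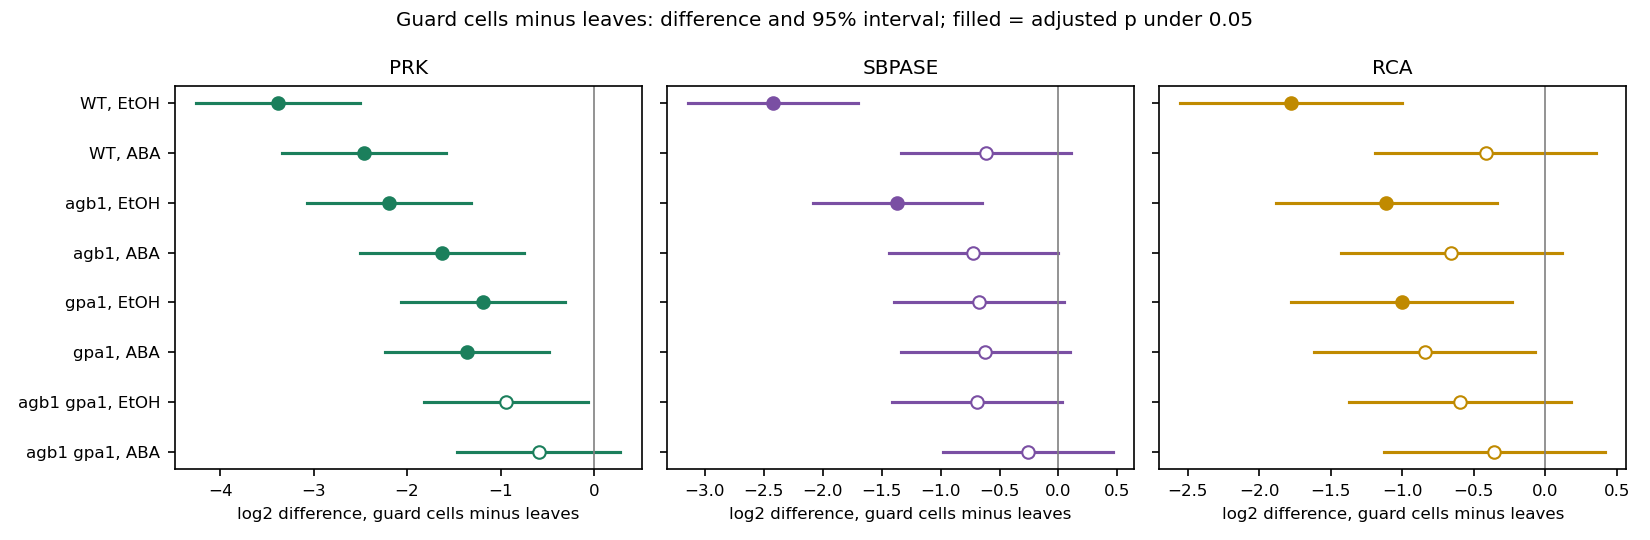
Log2 difference of guard cell samples minus leaves for each gene by genotype and treatment, with 95% intervals (filled points: adjusted p under 0.05). Every point lies below 0, from -3.38 for PRK in WT with EtOH to -0.26 for SBPASE in the double mutant with ABA.

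All 3 genes fell with ABA in WT leaves. PRK read 11.85, 11.02 and 11.49 with EtOH and 9.58, 9.68 and 8.54 with ABA. SBPASE read 11.24, 9.89 and 10.63 with EtOH and 8.83, 9.36 and 7.38 with ABA. RCA read 13.38, 12.97 and 13.20 with EtOH and 11.67, 11.62 and 10.49 with ABA. For each gene the highest ABA array lay under the lowest EtOH array, as it did for 24.5% of all probe sets. Replicate 3 was the lowest ABA array for all 3 genes.

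PRK fell by 2.19 on the log2 scale (SE 0.37, interval -2.96 to -1.41), or 4.56-fold, with limma's adjusted p = 1.75e-04. SBPASE fell by 2.07 (SE 0.38, interval -2.87 to -1.27), or 4.19-fold (adjusted p = 3.65e-04), and RCA fell by 1.92 (SE 0.32, interval -2.60 to -1.25), or 3.79-fold (adjusted p = 1.67e-04). The intervals of the 3 genes overlap. All 3 were called lower, in a comparison in which 21.8% of all probe sets were. Leaving out any 1 of the 6 arrays kept the 3 calls, with adjusted p at most 0.00164, 0.00299 and 0.00132. The highest RCA value of 13.38 lay close to the array maxima of 13.98 to 14.50, where array signals can flatten; its effect on the RCA difference was not tested. Cell type markers also moved in WT leaves with ABA: the vascular marker SWEET11 fell by 1.24 (SE 0.33, adjusted p = 0.00634) and the guard cell marker FMA fell by 1.12 (SE 0.28, adjusted p = 0.00372), while AT1G22690 differed by -0.39 (SE 0.35, adjusted p = 0.400). Their part in the falls of the 3 genes was not tested.

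In mutant leaves the ABA differences were also negative for all 3 genes, and 1 of 9 was called. In agb1, PRK read 11.08, 10.80 and 9.87 with EtOH and 9.71, 9.39 and 8.49 with ABA, a fall of 1.39 (SE 0.37, 2.61-fold, limma's adjusted p = 0.0153). SBPASE in agb1 read 9.93, 9.71 and 10.06 with EtOH and 9.23, 8.87 and 8.999 with ABA, also without overlap, but its difference of -0.87 (SE 0.38, interval -1.67 to -0.07) was not called (adjusted p = 0.147). RCA in agb1 differed by -0.63 (interval -1.31 to 0.04, adjusted p = 0.221), with overlap. The 1 called gene stands beside 7.59% of all probe sets called lower in agb1 leaves, and the 2 without overlap beside 13.5% without overlap in this direction. The PRK call was lost in a limma fit of the 6 arrays compared (adjusted p = 0.126). Without replicate 1 or 2 of the EtOH arrays or replicate 3 of the ABA arrays it was lost too (adjusted p = 0.0918, 0.0657 and 0.105). These fits used no pairing by replicate number. Same-numbered EtOH and ABA arrays of agb1 leaves deviated together over all probe sets (r from 0.52 to 0.66). For each of the 3 genes the ABA array was lower in 3 of 3 such pairs, a pattern not counted over all probe sets.

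In gpa1 leaves PRK read 9.79, 9.83 and 10.45 with EtOH and 9.38, 9.48 and 9.04 with ABA. These did not overlap, and the difference was -0.72 (SE 0.37, interval -1.50 to 0.06, limma's adjusted p = 0.281). SBPASE differed by -0.43 (interval -1.23 to 0.37, adjusted p = 0.620) and RCA by -0.37 (interval -1.05 to 0.31, adjusted p = 0.610). No member was called, beside 4.95% of all probe sets called lower and 18.3% lower without overlap.

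In double mutant leaves PRK read 9.41, 9.71 and 9.45 with EtOH and 8.78, 7.97 and 8.88 with ABA, without overlap, a difference of -0.98 (SE 0.37, interval -1.76 to -0.21, limma's adjusted p = 0.109). SBPASE differed by -0.83 (interval -1.63 to -0.03, adjusted p = 0.206), also without overlap, and RCA by -0.56 (interval -1.24 to 0.12, adjusted p = 0.346), with overlap. No member was called, beside 5.07% of all probe sets called lower and 13.2% lower without overlap. SWEET11 was called lower with ABA in the leaves of each mutant (-1.15, -1.27 and -1.36 in agb1, gpa1 and agb1 gpa1, SE 0.33 each), and neither guard cell marker was. Across the 9 tests in mutant leaves, 4 had an unadjusted p under 0.05. Of all 22746 probe sets 6109, 4825 and 4973 had one in agb1, gpa1 and the double mutant.

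Averaged over the 4 genotypes, a comparison added after the data were seen, leaves with ABA had lower values of all 3 transcripts. PRK differed by -1.32 (SE 0.18, 2.50-fold, limma's adjusted p = 1.04e-05), SBPASE by -1.05 (SE 0.19, 2.07-fold, adjusted p = 1.69e-04) and RCA by -0.87 (SE 0.16, 1.83-fold, adjusted p = 2.06e-04). All 3 were called, beside 25.8% of all probe sets called lower, and WT is 1 of the 4 genotypes in the average. The markers SWEET11 (-1.26, SE 0.17), AT1G22690 (-0.74, SE 0.17) and FMA (-0.59, SE 0.14) were called lower in the same average, and their part in it was not tested.

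**Figure D3:**
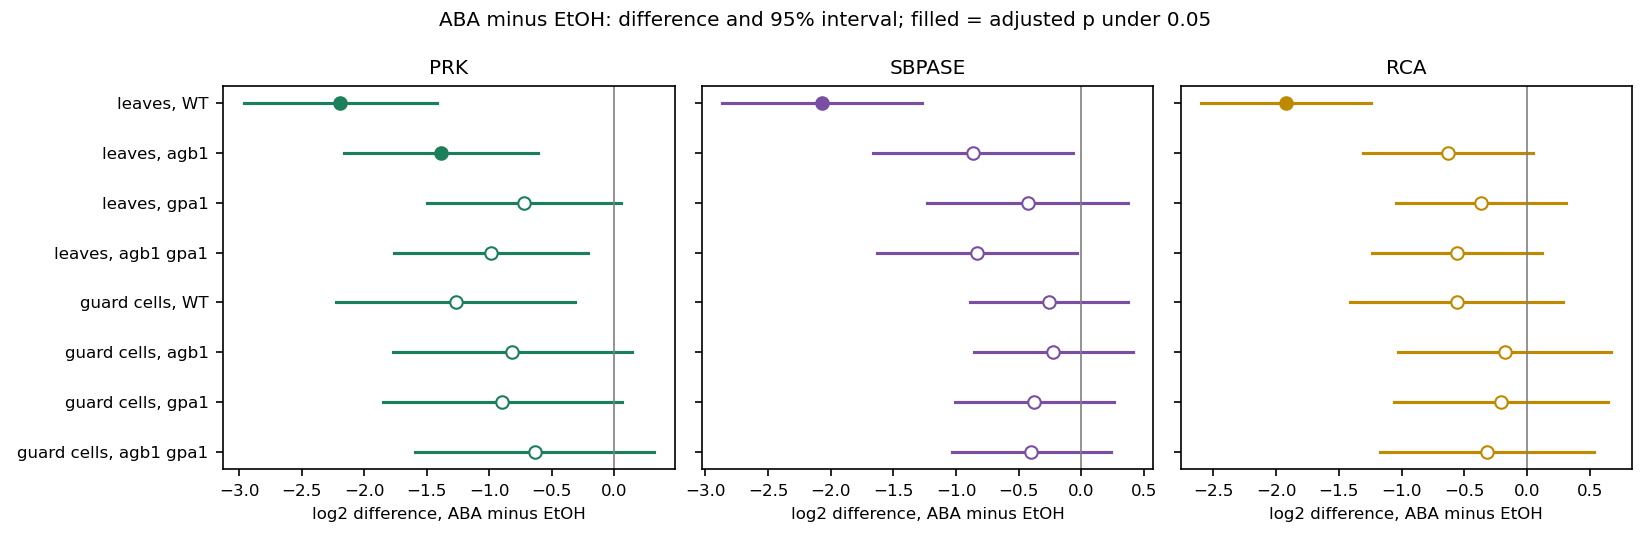
Log2 difference of ABA minus EtOH for each gene by genotype in leaves and guard cell samples, with 95% intervals (filled points: adjusted p under 0.05). All 24 points lie below 0, and 4 of them are called: the 3 genes in WT leaves and PRK in agb1 leaves.

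In guard cell samples none of the ABA differences was called genotype by genotype. PRK in WT read 8.93, 8.07 and 7.22 with EtOH and 7.72, 6.56 and 6.14 with ABA. Within each replicate number the ABA array was the lower one, but the 2 groups overlapped. The difference was -1.27 (SE 0.46, interval -2.22 to -0.31, limma's adjusted p = 0.0573). In guard cell samples the ABA and EtOH arrays of a genotype with the same replicate number deviated together, but those of different genotypes did not throughout. With the number as a replicate block over all genotypes PRK was called (limma's adjusted p = 0.0424). PRK was called too with the block set within genotype and sample type (adjusted p = 0.0103), a setting added after the data were seen. It was also called without replicate 3 of the EtOH arrays (-1.69, adjusted p = 0.0180) or replicate 1 of the ABA arrays (-1.72, adjusted p = 0.0122).

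SBPASE in WT guard cell samples read 8.61, 8.14 and 7.75 with EtOH and 8.45, 7.58 and 7.70 with ABA, which overlapped, for a difference of -0.26 (SE 0.30, interval -0.89 to 0.37, limma's adjusted p = 0.619). RCA read 12.31, 11.21 and 10.70 with EtOH and 11.68, 11.03 and 9.83 with ABA, which also overlapped, for a difference of -0.56 (SE 0.41, interval -1.41 to 0.29, adjusted p = 0.385). As for PRK, the ABA array was the lower one in all 3 pairs of the same number for both genes. This pattern was not counted over all probe sets. The replicate block in limma called neither gene (adjusted p = 0.560 and 0.268). Over 7 alternative settings, both kinds of block among them, limma's lowest adjusted p was 0.318 for SBPASE and 0.0565 for RCA. None of the 3 genes was called in WT, beside 11.6% of all probe sets called lower. The guard cell marker FMA fell by 2.44 there (SE 0.27, adjusted p = 1.41e-06), while AT1G22690 (-0.44, SE 0.21) and SWEET11 (0.02, SE 0.49) were not called.

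In the mutants' guard cell samples PRK differed by -0.81 in agb1 (interval -1.77 to 0.14), by -0.89 in gpa1 (interval -1.85 to 0.06) and by -0.63 in the double mutant (interval -1.59 to 0.32). For gpa1 the PRK arrays did not overlap, at 8.93, 8.80 and 8.78 with EtOH and 8.07, 8.65 and 7.11 with ABA, as for 17.8% of all probe sets in this direction. SBPASE differed by -0.22, -0.38 and -0.40 in these genotypes, and RCA by -0.18, -0.21 and -0.32, with overlap each time. All 9 differences were negative and limma called none, with unadjusted p of at least 0.0649, and without replicate 3 of the gpa1 ABA arrays the RCA difference in gpa1 was 0.05. Paired by number, SBPASE was lower with ABA in 3 of 3 pairs of each mutant. PRK was lower in 2, 3 and 2 and RCA in 2, 1 and 2 of 3 (agb1, gpa1 and double mutant). Such pairs were not counted over all probe sets. Called lower were 8.44% of all probe sets for agb1, 11.4% for gpa1 and 8.99% for the double mutant.

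Averaged over the 4 genotypes, again added after the data were seen, PRK fell by 0.90 in guard cell samples (SE 0.23, interval -1.38 to -0.42, 1.87-fold, limma's adjusted p = 0.00304). SBPASE differed by -0.31 (SE 0.15, adjusted p = 0.106) and RCA by -0.32 (SE 0.20, adjusted p = 0.229). With the block within genotype and sample type both were called (adjusted p = 0.00933 and 0.0199), and SBPASE also without replicate 1 of the WT ABA arrays (adjusted p = 0.0422). Thus 1 of the 3 genes was called in the fit without a block, beside 24.1% of all probe sets called lower. FMA (-2.46, SE 0.13) and AT1G22690 (-0.32, SE 0.11) were called lower in this average too, and their part in the PRK fall was not tested.

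The ABA response was then compared between the sample types as a difference of differences, in which a positive value means a less negative difference in guard cell samples. In WT it was 1.81 for SBPASE (SE 0.50, interval 0.79 to 2.82, limma's adjusted p = 0.00769), 1.36 for RCA (SE 0.54, interval 0.27 to 2.45, adjusted p = 0.0653) and 0.92 for PRK (SE 0.61, interval -0.32 to 2.16, adjusted p = 0.305). SBPASE was the 1 gene called, beside 12.3% of all probe sets called higher. Of the markers FMA was called in WT in the opposite direction (-1.32, SE 0.40), and SWEET11 (1.26, SE 0.62, adjusted p = 0.145) and AT1G22690 (-0.05, SE 0.41) were not called. The SBPASE difference of responses was not called in a fit of the 12 WT arrays compared (limma's adjusted p = 0.101). RCA was called without replicate 1 of the WT EtOH guard cells (1.81, adjusted p = 0.0129), replicate 3 of the WT ABA guard cells (1.87, adjusted p = 0.00808) or replicate 1 of the WT ABA leaves (1.56, adjusted p = 0.0450).

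In the mutants this difference of responses ran from -0.18 for PRK in gpa1 to 0.65 for SBPASE in agb1. None of the 9 was called by limma and none had an unadjusted p under 0.05, with 3.2% (agb1), 3.84% (gpa1) and 2.69% (double mutant) of all probe sets called higher. An unadjusted p under 0.05 was had by 3933, 4204 and 3858 of all 22746 probe sets. As a mean over the 4 genotypes, added after the data were seen, it was 0.73 for SBPASE (SE 0.25, interval 0.23 to 1.24, adjusted p = 0.0210), 0.55 for RCA (SE 0.27, adjusted p = 0.118) and 0.42 for PRK (SE 0.31, adjusted p = 0.333). SBPASE was the gene called, beside 17.3% of all probe sets called higher. RCA was called without replicate 1 of the WT EtOH guard cells (adjusted p = 0.0412) or replicate 3 of the WT ABA guard cells (adjusted p = 0.0316).

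The genotypes were compared within each sample type and treatment, and these comparisons share the WT arrays, so a high or low WT array enters all of them. In leaves without ABA every mutant had a lower mean than WT for every gene. PRK stood at 11.46 ± 0.42 (SD, n = 3) in WT, 10.58 ± 0.64 in agb1, 10.02 ± 0.37 in gpa1 and, lowest, 9.53 ± 0.16 in the double mutant. SBPASE stood at 10.59 ± 0.67, 9.90 ± 0.18, 9.45 ± 0.35 and 9.49 ± 0.38 in the same order, and RCA at 13.18 ± 0.21, 12.69 ± 0.35, 12.47 ± 0.46 and 12.16 ± 0.39.

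Of these 9 differences 1 was called, PRK in the double mutant, which was lower than WT by a log2 difference of -1.93 (SE 0.37, interval -2.71 to -1.16, 3.81-fold, limma's adjusted p = 0.0113). The 3 double mutant arrays (9.41, 9.71 and 9.45) all lay below the 3 WT arrays, as they did for 12.9% of all probe sets. RCA differed by -1.02 (SE 0.32, adjusted p = 0.0643), without overlap, and SBPASE by -1.10 (SE 0.38, adjusted p = 0.0888), with 1 double mutant array (9.92) above the lowest WT array (9.89). In that comparison 6.13% of all probe sets were called. The PRK call was lost without replicate 1 of the WT arrays (adjusted p = 0.0615) or replicate 1 or 3 of the double mutant arrays (adjusted p = 0.0510 and 0.0701). RCA was called without replicate 2 of the double mutant arrays (adjusted p = 0.0446) and SBPASE without replicate 2 of the WT arrays (adjusted p = 0.0447).

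In gpa1 leaves without ABA, PRK differed from WT by -1.43 (SE 0.37, interval -2.21 to -0.66, limma's adjusted p = 0.123), SBPASE by -1.14 (interval -1.94 to -0.34, adjusted p = 0.229) and RCA by -0.72 (interval -1.39 to -0.04, adjusted p = 0.393). PRK and SBPASE did not overlap with WT, as 8.11% of all probe sets did not in this direction. None was called, beside 0.101% of all probe sets; PRK was called without replicate 3 of the gpa1 arrays (-1.65, adjusted p = 0.0491). In agb1 the differences were -0.87 for PRK, -0.69 for SBPASE and -0.50 for RCA, with overlap and none called, and 0% of all probe sets were called in that comparison, though 1585 had an unadjusted p under 0.05. Of the 9 tests of the 3 genes, 7 had an unadjusted p under 0.05. Of all 22746 probe sets 2681 had one in gpa1 and 5302 in the double mutant.

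The mean of the 3 mutants against WT, added after the data were seen, was called in leaves without ABA for PRK (-1.41, SE 0.30, 2.66-fold, limma's adjusted p = 0.0207), beside 3.06% of all probe sets. SBPASE (-0.97, SE 0.31, adjusted p = 0.0901) and RCA (-0.75, SE 0.26, adjusted p = 0.121) were not called. The PRK call was lost in a fit of the 12 arrays compared (adjusted p = 0.105) and without replicate 1 or 3 of the WT arrays (adjusted p = 0.170 and 0.0635). SBPASE was called without replicate 2 of the WT arrays (-1.32, adjusted p = 0.0458).

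In leaves with ABA the 9 differences of mutants from WT ran from -0.72 (PRK, double mutant) to 0.83 (RCA, gpa1). Limma called none of the 9. An unadjusted p under 0.05 was had by 2 of them, and in each mutant by far more probe sets than limma called. The 2 are thus not shown to be particular to these genes. RCA in gpa1 read 12.33, 12.08 and 11.87 and in agb1 12.63, 11.84 and 11.68, each array above the highest WT array of 11.67, as for 15.7% of all probe sets in gpa1 and 5.5% in agb1. Without replicate 3 of the WT arrays the SBPASE differences in agb1, gpa1 and the double mutant turned from 0.51, 0.50 and 0.14 to -0.06, -0.07 and -0.43, and that of RCA in the double mutant from 0.34 to -0.05. Called were 0.0352% of all probe sets for agb1, 0.611% for gpa1 and 0.0176% for the double mutant, and 0.488% for the mean of the 3 mutants, where no member was called either.

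In leaves the log2 difference with ABA was less negative in each mutant than in WT for each gene, but no such difference of responses was called. It ran from 0.80 for PRK in agb1 (SE 0.52, interval -0.29 to 1.90) to 1.64 for SBPASE in gpa1 (SE 0.54, interval 0.51 to 2.77), with limma's adjusted p from 0.109 to 0.520. Of these 9 tests 8 had an unadjusted p under 0.05. No probe set was called either, 0% in each of agb1, gpa1 and the double mutant, while 2805, 5013 and 3825 had an unadjusted p under 0.05. All 9 differences contain the same 6 WT arrays. RCA in gpa1 was called without replicate 3 of the gpa1 EtOH arrays (1.81, adjusted p = 0.0427).

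For the mean of the 3 mutants the difference of responses in leaves was 1.40 for RCA (SE 0.37, interval 0.62 to 2.18, limma's adjusted p = 0.0490), 1.36 for SBPASE (SE 0.44, adjusted p = 0.0764) and 1.16 for PRK (SE 0.43, adjusted p = 0.105). RCA was called, beside 2.99% of all probe sets. Its call was lost in 17 of 24 fits that left out 1 array, with values from 1.02 to 1.60 and adjusted p up to 0.138, and after quantile normalization (adjusted p = 0.0569). The lowest value came without replicate 3 of the WT ABA leaves. PRK was called without replicate 3 of the agb1 ABA leaves (1.28, adjusted p = 0.0432).

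In guard cell samples no mutant differed from WT by a called amount in any of the 3 genes. Without ABA the differences ran from 0.06 for RCA in gpa1 to 0.76 for PRK in gpa1, and with ABA from 0.40 for RCA in the double mutant to 1.14 for PRK in the double mutant. All 18 were positive and limma called none. Without replicate 3 of the WT EtOH arrays RCA turned to -0.19, -0.30 and -0.20 in agb1, gpa1 and the double mutant and PRK to -0.12 in agb1. Without replicate 3 of the WT ABA arrays RCA turned to -0.10 in gpa1 and -0.11 in the double mutant. Of the 18 tests 3 had an unadjusted p under 0.05: PRK with ABA in both gpa1 genotypes, single and double (1.13 and 1.14, SE 0.46), and SBPASE without ABA in the double mutant (0.63, SE 0.30). Of all 22746 probe sets 795, 1630 and 1405 had one without ABA (agb1, gpa1 and double mutant), and 1218, 1788 and 1810 with ABA. Without ABA 0.0308% of all probe sets were called for agb1, 0.0176% for gpa1 and 0.0484% for the double mutant. With ABA the shares were 0.00879%, 0.00879% and 0.0132%. The mean of the 3 mutants against WT called no member, beside 0.0308% of all probe sets without ABA and 0.0132% with ABA.

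The ABA response of guard cell samples differed between mutants and WT by -0.14 for SBPASE in the double mutant to 0.63 for PRK in the double mutant. Limma called 0% of all probe sets in agb1, gpa1 and the double mutant, where 308, 519 and 476 had an unadjusted p under 0.05. It also called 0% for the mean of the 3 mutants, where 493 had one. None of the 9 tests of the members had an unadjusted p under 0.05, and the intervals were wide, for PRK in agb1 from -0.90 to 1.80.

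Ordered by their means, the 16 groups put WT leaves with EtOH first and WT guard cells with ABA last for all 3 genes. PRK ran from 11.46 ± 0.42 to 6.81 ± 0.82 (SD, n = 3). After WT came the leaves of agb1, gpa1 and the double mutant with EtOH, then gpa1, WT and agb1 leaves with ABA. All guard cell groups stood below these 7. Double mutant leaves with ABA were 10th (8.54 ± 0.49), below the gpa1 and double mutant guard cells with EtOH (8.84 ± 0.08 and 8.58 ± 0.45). Neighbouring groups in this order overlapped in 14 of 15 places, the exception being gpa1 against double mutant leaves with EtOH. SBPASE ran from 10.59 ± 0.67 to 7.91 ± 0.47 and RCA from 13.18 ± 0.21 to 10.84 ± 0.94, with all 15 neighbouring pairs overlapping for each. WT leaves with ABA were 11th for SBPASE (8.52 ± 1.02) and 13th for RCA (11.26 ± 0.67), among the guard cell groups, but 6th for PRK (9.27 ± 0.63).

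Other genes of the pathway came from a written list of 40 Calvin cycle enzymes, regulators and chaperones, of which 12 had a named probe set, 9 besides the 3 genes. In WT leaves with ABA, 4 of these 9 fell and none rose, with a median difference of -0.64 against 0.05 over all probe sets, of which 21.8% were called lower. They were AT1G73110 (-2.41, SE 0.20), AT5G28500 (-1.32, SE 0.42), AT1G56190 (-0.77, SE 0.22) and AT3G48420 (-0.61, SE 0.21). TRXF2, a thioredoxin that activates enzymes of the cycle in the light, differed by -0.10 (SE 0.17, limma's adjusted p = 0.674). The chloroplast gene rbcL, the large subunit of rubisco, differed by -0.64 (SE 0.38, adjusted p = 0.191).

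In guard cell samples of WT with ABA, 3 of the 9 fell and none rose, with a median of -0.41 against 0.03 over all probe sets, of which 11.6% were called lower. These were AT2G04700 (-1.07, SE 0.32), AT1G73110 (-1.05, SE 0.24) and AT5G28500 (-0.73, SE 0.22). Between WT guard cell samples and leaves without ABA, 7 of the 9 were lower in guard cell samples and 1 was higher, with a median of -1.47 against 0.04 over all probe sets, of which 22.2% were called lower and 20% higher. The widest were AT3G48420 (-4.35, SE 0.26), AT1G73110 (-2.48, SE 0.23), AT2G04700 (-2.39, SE 0.31) and AT1G56190 (-1.996, SE 0.27). The higher one was rbcL, by 1.58 (SE 0.34, limma's adjusted p = 2.25e-04), so the gene of the rubisco large subunit and the gene of its activase were called in opposite directions. How far the labelling reached plastid transcripts, and whether it did so alike in both sample types, was not tested.

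Photorespiration recycles the product of rubisco's reaction with oxygen, and 3 of 13 listed genes were measured. All 3 fell with ABA in WT leaves: AT1G11860 (-2.08, SE 0.27), the peroxisomal hydroxypyruvate reductase HPR (-1.91, SE 0.38) and AT1G80380 (-0.77, SE 0.28), beside the 21.8% of all probe sets called lower. None was called in WT guard cell samples with ABA, where the differences were -0.40, -0.10 and -0.20, beside 11.6% of all probe sets called lower. All 3 were lower in guard cell samples than in leaves of WT without ABA, by -4.20, -2.18 and -1.26, beside 22.2% of all probe sets. The difference of ABA responses between WT guard cell samples and leaves was called for AT1G11860 (1.68, SE 0.42) and HPR (1.81, SE 0.55), beside 12.3% of all probe sets called higher.

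The light harvesting list had 3 of 18 genes measured, all LHCB4 antenna proteins of photosystem II. In WT leaves with ABA LHCB4.2 fell by 1.01 (SE 0.28), while LHCB4.1 (-0.26, SE 0.13) and LHCB4.3 (0.89, SE 0.43) were not called, beside 21.8% of all probe sets called lower. The mean of the 3 was 10.37 to 10.94 on the WT leaf arrays with EtOH and 10.35 to 10.77 with ABA. It was 9.16 to 9.87 on the WT guard cell arrays with EtOH and 8.81 to 8.94 with ABA, where LHCB4.1 (-0.71, SE 0.17) and LHCB4.2 (-1.56, SE 0.22) fell, beside 11.6% of all probe sets called lower. No gene of the starch and triose phosphate list was measured.

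**Figure D4:**
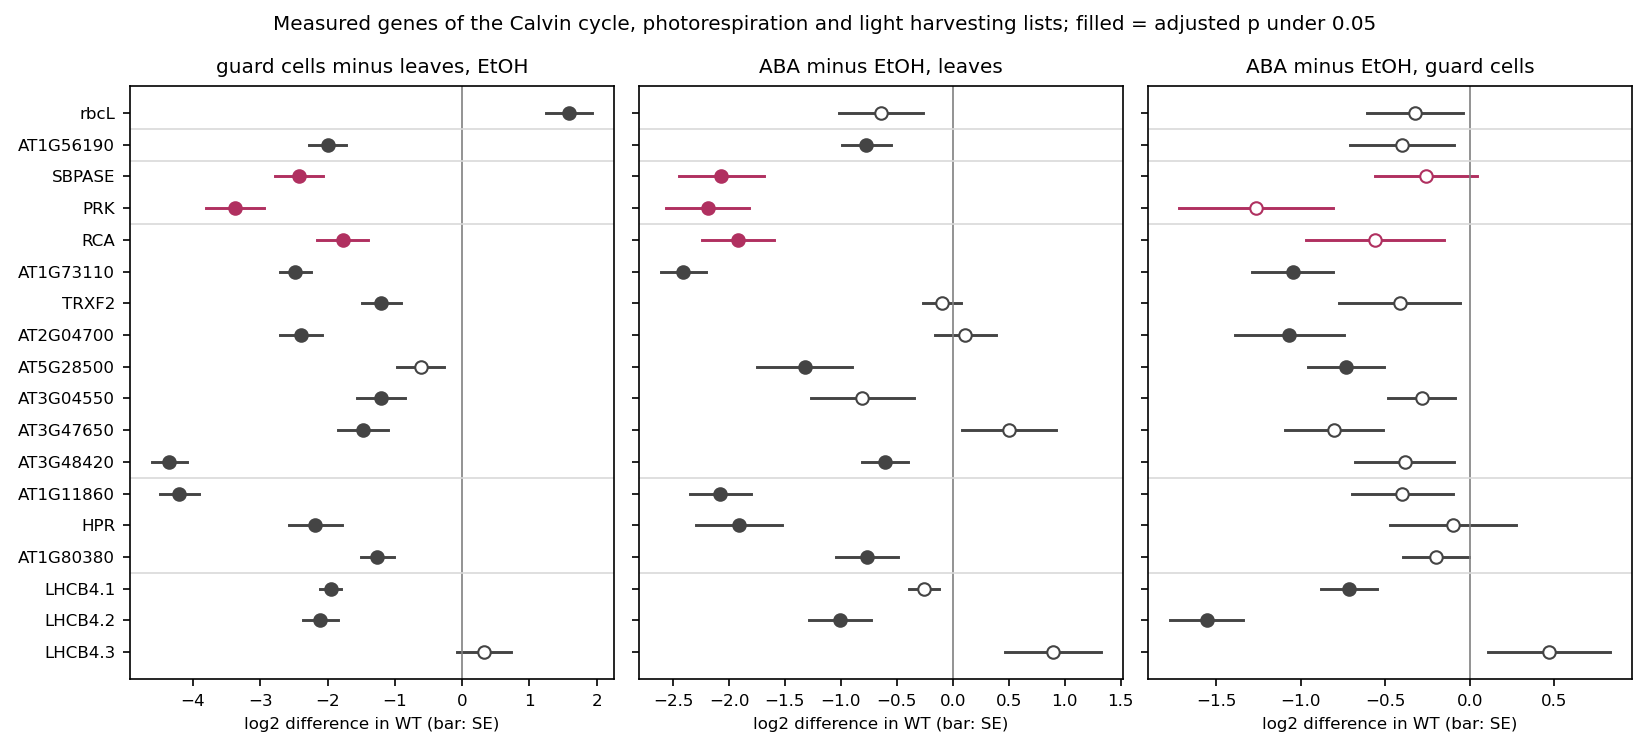
Log2 differences in WT of the measured Calvin cycle, photorespiration and light harvesting genes (bars: SE; filled points: adjusted p under 0.05; PRK, SBPASE and RCA in red), for guard cells minus leaves and for ABA minus EtOH in each sample type. In leaves with ABA the widest fall is AT1G73110 at -2.41, followed by PRK, AT1G11860 and SBPASE at -2.19, -2.08 and -2.07.

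The 3 genes also varied together among replicates of a group. Over the 48 arrays, deviations from the group means correlated with Pearson's r of 0.84 between PRK and RCA, 0.70 between SBPASE and RCA and 0.67 between PRK and SBPASE. Within the 24 guard cell arrays these were 0.84, 0.77 and 0.86, and within the 24 leaf arrays 0.84, 0.67 and 0.52. The same array was the highest of its group for all 3 genes in 8 of 16 groups and the lowest in 7. These correlations describe arrays that share an RNA sample, a hybridization and a normalization. Neither the correlations nor the same-array counts were computed for other sets of 3 genes, so they are not shown to be particular to these.

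Deviations of LHCB4.1 went with those of PRK (r = 0.67 over 48 arrays), SBPASE (0.53) and RCA (0.53), with lower r for LHCB4.2 (0.28, 0.37 and 0.16) and LHCB4.3 (0.19, 0.40 and 0.17). In leaf arrays LHCB4.3 gave -0.28 with PRK and -0.25 with RCA. Deviations of the vascular marker SWEET11 gave 0.02, 0.11 and 0.20 over 48 arrays. In guard cell arrays the guard cell marker AT1G22690 deviated with all 3 genes (0.65, 0.78 and 0.62), and in leaf arrays it gave -0.46, -0.02 and -0.32. The other guard cell marker, FMA, gave 0.57, 0.50 and 0.44 in guard cell arrays and 0.44, 0.36 and 0.27 in leaf arrays. The part of sample makeup or RNA quality in these shared deviations was not tested.

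**Figure D5:**
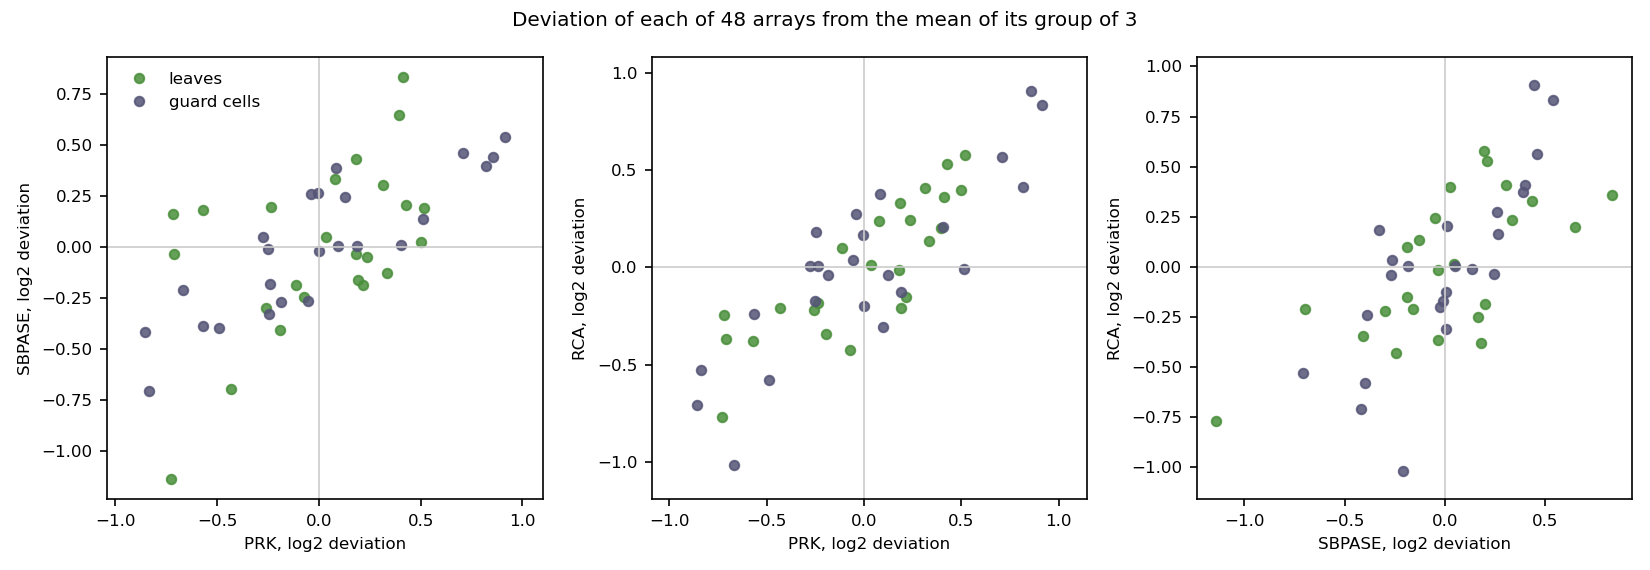
Deviation of each of 48 arrays from the mean of its group of 3, in log2 units, for each pair of the 3 genes (green leaves, grey guard cell samples). The points run from lower left to upper right, with r = 0.67, 0.84 and 0.70 from the left panel to the right.

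Genes with the most similar pattern were ranked by Pearson's r over the 48 arrays among 13355 named genes, a measure that reflects the differences between groups as well as those between arrays. For PRK the closest was ATPC1, the gamma subunit of the chloroplast ATP synthase (r = 0.94), followed by AT5G22620, AT4G01310, AT4G18060 and AT3G23700 (0.92 to 0.91). SBPASE and RCA were 10th and 11th in that order, at 0.90. For SBPASE the closest was AT2G42690 (0.91), followed by PRK, RCA, ATPC1 and AT1G36320 (0.90 to 0.89). For RCA the closest were SBPASE and PRK (both 0.90), followed by AT5G18500, AT4G18060 and AT1G04430 (0.87 to 0.86). Across all candidates the median r lay between -0.15 and -0.14 and the 99th percentile between 0.76 and 0.82.

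Within one sample type the order changed. Over the 24 leaf arrays SBPASE was closest to AT1G11860 of the photorespiration list (r = 0.96), then to ATPC1 (0.91) and TROL, a thylakoid rhodanese-like protein (0.90). PRK was closest there to AT4G32330, AT1G16350 and AT4G39690 (0.95 each), and RCA to AT4G18060, AT1G69420 and FER (0.93, 0.93 and 0.91). Over the 24 guard cell arrays PRK was closest to AT3G16370 (0.94), LIL3:2, a light-harvesting-like protein (0.94), and PSAN, a subunit of photosystem I (0.92). In the same arrays SBPASE was closest to AT1G06640, AT5G59250 and AT1G18060 (0.92, 0.92 and 0.90). RCA was closest to AT4G17560, AT5G36210 and AT1G79640 (0.90, 0.90 and 0.88). SBPASE was 28th from PRK there and RCA 192nd. Over leaf arrays SBPASE was 403rd from PRK and RCA 182nd, at r of 0.84 and 0.87, below the 99th percentile of 0.88.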

How the data were processed

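The authors deposited log2 values, 1 for each probe set and array; per the submitters' processing notes RMA and the affy package were used; versions, and whether all 48 arrays were normalized together, are not given in the sources used here. Probe sets (22810) were used as deposited except for 64 controls, none was missing a value, and no 2 arrays were identical. Names came from the platform annotation, updated through a RefSeq gene table, by which 13513 probe sets had 1 gene, 503 had several and 8730 had none. No genome build is named for the values, so coordinates and sequences are not given here. Tests used limma 3.58.1 in R 4.3.3 with a mean for each group, over the 24 arrays of a sample type or, between sample types, all 48, and two-sided p-values adjusted over 22746 probe sets. The fit was tried on simulated guard cell arrays with independent noise and known changes, for ABA against EtOH in WT. Leaf fits, fits of all 48 arrays and noise shared by same-numbered arrays were not simulated. The 3 genes and the gene lists were chosen with earlier results of these data known. Named are the 3 genes, up to 4 called genes of a list with the widest change in WT plus markers, and the 5 (within a sample type 3) genes most like each member; TRXF2, rbcL and LHCB genes that were not called were chosen after their values were seen. The number of arrays limits the precision.

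Replicate numbers were checked for pairing by correlating the deviations of same-numbered arrays from their group means over probe sets. In ABA against EtOH in guard cell samples all 12 pairs lay between 0.20 and 0.64, over the limit of 0.1. The pairs in agb1 leaves were over it too. In the other 3 leaf comparisons, and between genotypes or sample types, the pairs were not over it throughout. The main tests used no pairing, also where the pairs were over the limit. Only the replicate blocks used the numbers. Alternatives were median centring, quantile normalization, leaving out dim probe sets and fitting only the arrays compared. A trended robust variance, replicate blocks and leaving out each array were used as well. A probe set was dim if its highest group mean, among the groups of the fit, was under 6. Comparisons averaged over genotypes, and the block within genotype and sample type, were added after the data were seen.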

Additional observations from a re-analysis of the deposited data

Results flagged for a closer look

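The ABA response of SBPASE of WT differed by 1.81 between the sample types, guard cells minus leaves (log2, SE 0.50). Limma's test of the difference itself called it (adjusted p = 0.00769), but not in a fit of only the WT arrays compared (adjusted p = 0.101). As a mean over the 4 genotypes, WT among them, it was 0.73 (adjusted p = 0.0210), a comparison added after the data were seen. In agb1, gpa1 and the double mutant it was 0.65, 0.05 and 0.43, and none was called. The ABA response of RCA in leaves differed between the mean of the 3 mutants and WT by 1.40 (SE 0.37, adjusted p = 0.0490), and this call depended on single arrays. Groups of 3 arrays are too small for a search for outlying samples.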

How the results depend on the processing

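Of 141 member differences 2, neither of them called, changed sign under another setting than leaving out arrays: PRK in gpa1 leaves against WT with ABA (0.04, or -0.05 with median centring) and SBPASE in the ABA response of agb1 guard cells against WT (0.04, or -0.0074 after quantile normalization). With 1 array left out 29 changed sign at least once, none of them called. Leaving out dim probe sets added calls for PRK with ABA in WT guard cells (-1.27, adjusted p = 0.0312), PRK in double mutant guard cells against leaves with EtOH (-0.94, 0.0483), RCA in the ABA response of WT guard cells against leaves (1.36, 0.0403), RCA in gpa1 guard cells against leaves with ABA (-0.84, 0.0464) and 1 more gene among mutants against WT in leaves (2 called in place of 1). A fit of only the arrays compared ended the calls of PRK with ABA in agb1 leaves (-1.39), PRK in the mean of the mutants against WT in EtOH leaves (-1.41) and SBPASE in the ABA response of WT guard cells against leaves (1.81). It added calls for SBPASE with ABA in agb1 leaves (-0.87, adjusted p = 0.0297) and for guard cells against leaves in the double mutant with EtOH (-0.94, -0.69 and -0.60), of SBPASE in agb1 with ABA (-0.72, 0.0459) and in gpa1 with EtOH (-0.67, 0.0400), and of RCA in gpa1 with ABA (-0.84, 0.0337). Quantile normalization ended the RCA call in the ABA response of the mean mutant in leaves (1.39). The cause of these changes was not tested.

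The replicate block added a call for PRK with ABA in WT guard cells (-1.27, limma's adjusted p = 0.0424). For RCA it added calls in the ABA response of WT guard cells against leaves (1.36, 0.0349) and in gpa1 guard cells against leaves with ABA (-0.84, 0.0396). In all these fits the block spanned genotypes, between which the numbers did not pair the arrays throughout. For RCA it also spanned the sample types, where the same holds. The block changed no other call of the 3 genes. The block within genotype and sample type, added after the data were seen, gave PRK -1.27 (0.0103), RCA 1.36 (0.0105) and, over the 4 genotypes, SBPASE -0.31 (0.00933) and RCA -0.32 (0.0199) in guard cells and RCA 0.55 (0.0266) for the difference of responses. The planned mean over several probe sets of a gene was not run, since each gene has 1.

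With 1 array left out, PRK with ABA ran from -1.72 to -0.84 in WT guard cells and from -1.74 to -1.03 in agb1 leaves. For guard cells against leaves PRK ran from -1.20 to -0.80 in the double mutant with EtOH, from -1.71 to -0.94 in gpa1 with ABA and from -1.30 to -0.97 in gpa1 with EtOH, RCA from -1.24 to -0.91 in agb1 with EtOH, from -1.13 to -0.58 in gpa1 with ABA and from -1.18 to -0.74 in gpa1 with EtOH, and SBPASE from -1.18 to -0.20 in WT with ABA. For the mean mutant against WT in EtOH leaves PRK ran from -1.63 to -1.22 and SBPASE from -1.32 to -0.65, and for its ABA response PRK ran from 0.80 to 1.38 and RCA from 1.02 to 1.60. The ABA response of RCA in guard cells against leaves ran from 0.94 to 1.87 in WT and from 0.45 to 0.68 over the 4 genotypes, and SBPASE with ABA in guard cells over the 4 genotypes from -0.38 to -0.23. The count of called members among mutants against WT in leaves ran from 0 to 3, and in their ABA response from 0 to 1.

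Centring each array on its median moved the median of all probe sets by 0.25 for ABA in WT leaves (from 0.05 to 0.31), where the share of calls that were higher went from 43.7% to 70.7%. It moved that median by 0.21 for WT guard cells against leaves with EtOH (47.4% to 66.3%) and by -0.20 for the difference of WT responses (53.6% to 37.1%). A fit of only the arrays compared moved the count of called probe sets by over 1.5 times for ABA in WT guard cells (4585 to 3017) and in leaves of agb1 (3303 to 1557), gpa1 (2347 to 3967) and the double mutant (2311 to 1358). For mutants against WT in leaves with EtOH it moved the count from 1395 to 703 in the double mutant, from 23 to 0 in gpa1 and from 697 to 1 for the mean, and with ABA from 139 to 1615 in gpa1 and from 111 to 4 for the mean. For the ABA response in leaves it moved it from 0 to 1758 in gpa1 and from 0 to 255 in the double mutant. The block within genotype and sample type called 921 in that gpa1 comparison, and 2303 against 679 for the mean mutant. It called 5358 against 3571 for ABA in agb1 guard cells, and for the ABA response of guard cells against leaves 2329 against 1434 in agb1, 2660 against 1766 in gpa1 and 2133 against 1257 in the double mutant. With 3 arrays a group, a difference that was not called may be as large as either bound of its interval.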
